A study of Mus musculus with 8 samples.

Results

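Transcripts of Tbx1, Tbx2, Tbx3, Tbx15, Tbx18 and Tbx20, T-box genes with roles in the ear, the neural crest, the heart or the mesenchyme, were followed in mouse cochlear explants exposed for 6 h to CHIR99021. These 6 genes were read by symbol from a table of 42775 genes, in which each has 1 line and in which 17 genes belong to the T-box family. Cochleas of wild-type Swiss Webster embryos were explanted at E12.5, kept in culture for 1 day and then given either the DMSO vehicle (control) or 10 μM CHIR99021, an inhibitor of GSK3 that stabilizes β-catenin and so switches on canonical Wnt signaling. The labels also give the tissue as E14.0. Each group held 4 biological replicates, of which 2 were labelled female (replicates 1 and 3) and 2 male (replicates 2 and 4). Whether a library came from 1 embryo or from a pool is not given in the sources used here. Whole explants were sequenced, so the level of a gene averages over epithelium, periotic mesenchyme, glia, neurons and vessels. Levels are CPM, the reads of a gene scaled to the assigned reads of its library.

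T-box proteins share a DNA-binding domain, the T-box, and act as activators or repressors of transcription, often through Groucho/TLE and histone deacetylase partners. The Tbx1 subfamily includes Tbx1, Tbx15, Tbx18 and Tbx20, and Tbx2 and Tbx3, which repress transcription, belong to the Tbx2 subfamily. In the mouse ear, Tbx1 acts in the otic epithelium and in the periotic mesenchyme and is required for the cochlea to form, Tbx18 is needed for the otic fibrocytes that arise from that mesenchyme, and Tbx2 helps to keep inner hair cells distinct from outer hair cells.

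The stretches just upstream of the start sites of Tbx20 and Tbx1 are shown because these were the members whose level fell. Windows of 250 bases before each start were taken from RefSeq (GRCm38.p6), which matched 3 of the 6 members: Tbx1 with 2 start sites, Tbx18 and Tbx20. All lie on the minus strand and are written 5′ to 3′ in the direction of transcription, with GC boxes (GGGCGG, or its complement CCGCCC) in capitals. The first is the Tbx20 window (chr9:24774304-24774553), the second the window of the downstream Tbx1 start (chr16:18588900-18589149) and the third that of the upstream Tbx1 start (chr16:18590672-18590921).
Tbx20: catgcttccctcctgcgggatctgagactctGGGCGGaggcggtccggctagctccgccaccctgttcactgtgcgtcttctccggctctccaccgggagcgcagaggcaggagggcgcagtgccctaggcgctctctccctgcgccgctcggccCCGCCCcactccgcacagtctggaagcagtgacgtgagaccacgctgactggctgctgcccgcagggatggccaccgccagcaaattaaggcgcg
Tbx1, downstream start: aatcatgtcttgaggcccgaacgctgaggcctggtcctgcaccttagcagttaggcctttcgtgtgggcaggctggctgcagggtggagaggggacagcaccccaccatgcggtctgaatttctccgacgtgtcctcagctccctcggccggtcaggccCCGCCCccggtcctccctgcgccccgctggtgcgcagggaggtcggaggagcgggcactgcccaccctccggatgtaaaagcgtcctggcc
Tbx1, upstream start: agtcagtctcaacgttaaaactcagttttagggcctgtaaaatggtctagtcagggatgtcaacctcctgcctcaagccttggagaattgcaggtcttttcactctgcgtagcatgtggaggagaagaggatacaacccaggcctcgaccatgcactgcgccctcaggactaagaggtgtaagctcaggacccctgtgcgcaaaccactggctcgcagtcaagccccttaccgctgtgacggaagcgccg
None of these windows, nor that of Tbx18, holds CTTTGAT or CTTTGTT, which are bound by TCF/LEF proteins, or the T-box half-site AGGTGTGA on either strand. Across 32851 promoter windows of the same length, CTTTGAT occurs in 3.21%, CTTTGTT in 5.03% and AGGTGTGA in 1.12%, so that an empty window is the usual case. The GC box, which 32.7% of all windows hold, is found 2 times in the Tbx20 window and 1 time in the downstream Tbx1 window. The Tbx18 window has no GC box and holds a CCAAT box, found in 33.8% of windows. TATAAA, found in 12.4% of windows, is in none of the members' windows. The GC, CCAAT and TATA boxes were chosen after the sequences were seen. GC content is 68.8% for Tbx20, 67.2% for the downstream and 54.4% for the upstream Tbx1 start, and 54.0% for Tbx18.

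The libraries held 66483661 to 89269187 assigned reads in control and 64905007 to 75434130 in CHIR99021, so that 1 read was worth 0.0112 to 0.0154 CPM. Wnt feedback genes were higher after CHIR99021 in 6 of 6 cases, with a median log2 fold change of 1.99. Among them the Dishevelled antagonist Nkd1 went up from 121 to 572 CPM, Znrf3, a ligase that removes Frizzled receptors, from 45.0 to 104 CPM, and Axin2, a scaffold of the β-catenin destruction complex, from 87.8 to 266 CPM. Replicates 1 and 4 of both groups stood apart in the number of genes with a read, 22838 to 24249 against 20301 to 20698 in replicates 2 and 3.

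Across the 6 genes, Tbx20 and Tbx1 were lower after CHIR99021 and Tbx3 was higher, while Tbx18, Tbx2 and Tbx15 did not pass the test. The test was made with limma for the 14264 genes that averaged 1 CPM or more, on log2(CPM + 1) with Benjamini-Hochberg adjustment at 0.05, and all 6 members entered it. The 1 member that was higher stands beside a background of 12.3% of tested genes higher, and the 2 members that were lower beside 21.4% lower. Of the lower ones, Tbx20 met the filter of 1 CPM only through its control level, and its call is a description. Scaling the libraries by the trimmed mean of M-values (TMM) changed the split over all genes from 1753 higher and 3052 lower to 2442 and 2360, with 17.1% of genes higher, and 4 members then passed, 2 in each direction. The groups shared no value in 3 members, Tbx1, Tbx3 and Tbx20, which is to be read against 33.3% of all tested genes. In bulk tissue, fewer cells of a type and less RNA per cell cannot be told apart, and this applies to each difference below.

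**Figure D1:**
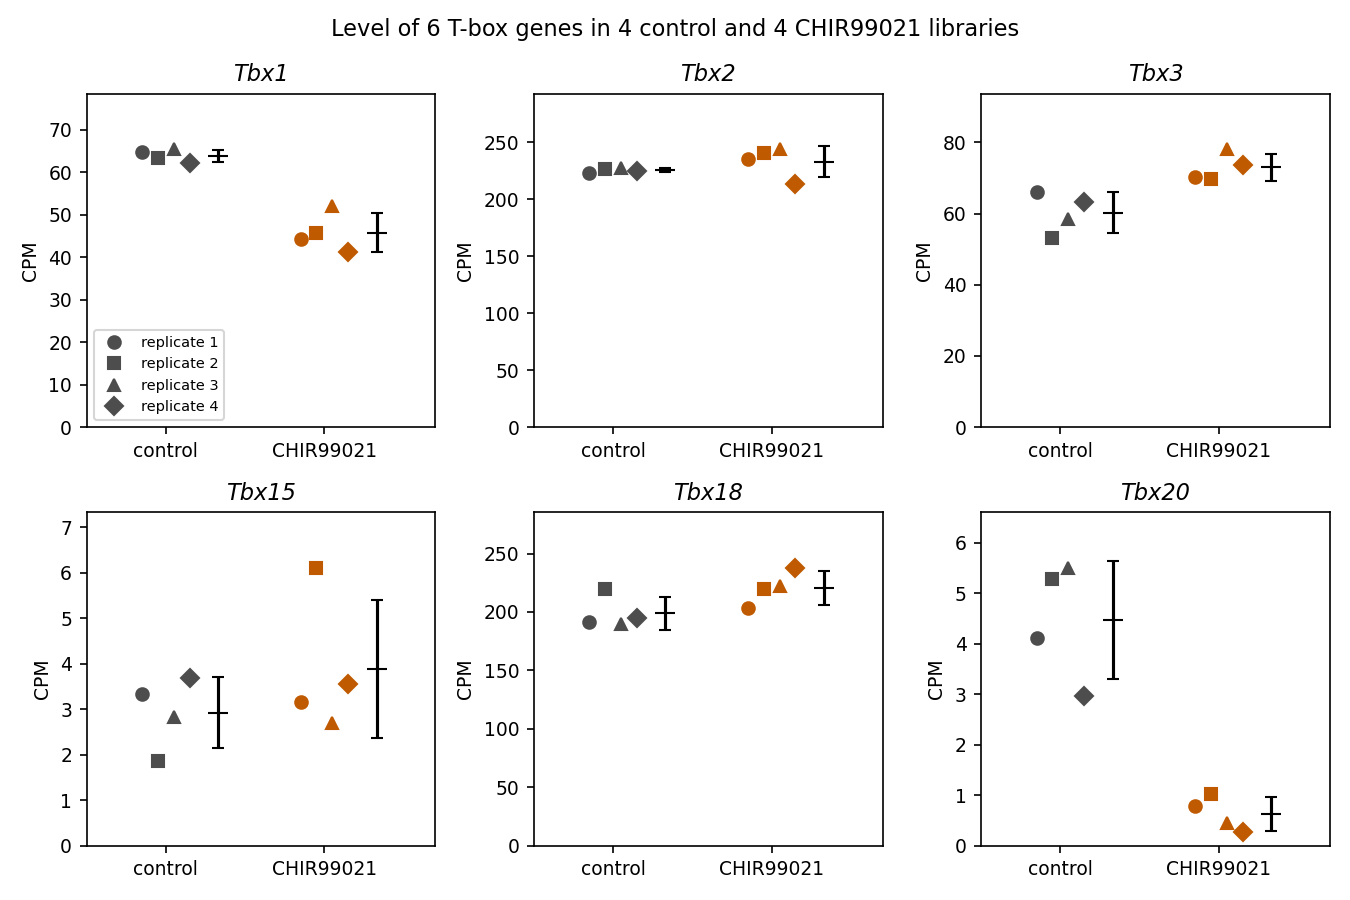
CPM of each of the 6 T-box genes in the 4 control and 4 CHIR99021 libraries. Each marker is 1 library, with the same marker for the same replicate number, and the bars at the side give the mean and SD. The axes start at 0 and differ between genes. CHIR99021 libraries lie below all control libraries for Tbx1 and Tbx20 and above them for Tbx3, and overlap with them for Tbx2, Tbx15 and Tbx18.

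Tbx1, which shapes the otic vesicle and the pharyngeal arches, lies on the minus strand of chr16 (18580979 to 18590671, GRCm38) and is annotated with 5 transcripts. Its level was 64.7, 63.3, 65.5 and 62.2 CPM in control replicates 1 to 4 and 44.2, 45.8, 52.1 and 41.2 CPM in CHIR99021 replicates 1 to 4. Every treated library lay below every control library, and the control values were close together. The mean went from 63.9 ± 1.45 to 45.8 ± 4.58 CPM (SD, n = 4 each), and so fell by 28.3%. The log2 fold change was -0.48 (SE 0.071, 95% confidence interval -0.63 to -0.32, limma adjusted p = 0.000564). Of all tested genes, 10.4% had a lower log2 fold change than Tbx1. Counting error was a small part of the spread in CHIR99021, where the coefficient of variation was 10.0% and reads alone would give 1.77%.

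Tbx20, a factor of the heart and of cranial motor neurons, lies on the minus strand of chr9 (24718138 to 24774303). Control libraries held 4.11, 5.29, 5.51 and 2.97 CPM, and CHIR99021 libraries 0.795, 1.02, 0.447 and 0.271 CPM. The highest treated library stayed below the lowest control library. These values rest on 240 to 459 reads per control library and 18 to 66 reads per treated library. The mean was 4.47 ± 1.18 CPM in control and 0.632 ± 0.337 CPM in CHIR99021 (SD, n = 4 each), 7.07 times lower. On the log2(CPM + 1) scale the change was -1.74 (SE 0.198, 95% confidence interval -2.18 to -1.30, limma adjusted p = 9.98e-05), and 29 of the 14264 genes had a lower value. That scale understates the change of a gene at this level: Tbx20 changed by -2.73 with a pseudocount of 0.1 and by -2.76 in edgeR on the recovered reads (adjusted p = 0.000394). Tbx20 passed the filter on low values only through its control level, since its CHIR99021 mean was under 1 CPM, and its call and rank are given as a description.

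Muscle and nerve markers were read beside Tbx20. The 7 markers of cardiac and skeletal muscle summed to 2.11 to 4.58 CPM in control and 1.93 to 4.22 CPM in CHIR99021, and none was at 0 in all libraries. The 1 that could be tested, skeletal actin Acta1, did not pass (0.915 to 1.10 CPM, limma adjusted p = 0.750). Acta1 met the filter of 1 CPM only through its CHIR99021 level, so its result is a description. Of 7 neuronal markers, 2 were lower and 5 did not pass, beside 21.4% of all tested genes lower. The 7 neuronal markers summed to 92.0 to 118 CPM in control and 57.7 to 87.1 CPM in CHIR99021. Stmn2, which encodes the microtubule-binding stathmin-2, fell from 18.2 to 7.49 CPM and the light neurofilament gene Nefl from 7.23 to 2.89 CPM. Elavl3, an RNA-binding protein of neurons, went from 6.59 to 3.48 CPM without passing (limma adjusted p = 0.0527). Tubb3, the highest of the 7 and named after its values were seen, went from 36.9 to 35.6 CPM without passing (limma adjusted p = 0.824). Of 4 tested markers of pericytes and smooth muscle, 3 were lower, beside 21.4% of all tested genes. Abcc9, a subunit of the KATP channel, fell from 24.4 to 5.96 CPM. Smooth muscle actin Acta2 fell from 38.4 to 20.5 CPM and the PDGF receptor gene Pdgfrb from 158 to 122 CPM. Rgs5, the other tested marker, named after its values were seen, went from 96.8 to 115 CPM without passing (limma adjusted p = 0.672). The summed level of the 6 listed pericyte markers was 286 to 369 CPM in control and 185 to 340 CPM in CHIR99021. The part of these cell types in the Tbx20 difference was not tested.

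Tbx18, a factor of otic fibrocytes and ureteric mesenchyme, lies 62.9 Mb from Tbx20 on chr9 (87702800 to 87731260, minus strand). Control libraries held 191, 220, 189 and 195 CPM and CHIR99021 libraries 203, 219, 222 and 238 CPM. Control replicate 2 lay among the treated libraries, and the other 3 control libraries lay below all treated ones. The mean was 199 ± 14.2 CPM in control and 221 ± 14.3 CPM in CHIR99021 (SD, n = 4 each). The log2 fold change of 0.15 (SE 0.066, 95% confidence interval 0.0035 to 0.29) did not pass in limma (adjusted p = 0.107). It passed after TMM scaling (limma adjusted p = 0.0332, log2 fold change 0.21), in edgeR with TMM (0.21, adjusted p = 0.0338), and without control replicate 2 (limma adjusted p = 0.0430, log2 fold change 0.20), so the call turned on the scaling and on 1 library. An antisense locus, RP23-353O7.5, shares 970 exonic bases with Tbx18 and was at 1.02 CPM in control and 1.26 CPM in CHIR99021. Whether the counting used strand is not given in the sources used here, so reads in the shared stretch cannot be assigned with certainty.

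Tbx15, which shapes skeletal elements and patterns the skin, lies on the plus strand of chr3 (99240381 to 99354259). It was at 3.33, 1.87, 2.83 and 3.68 CPM in control and at 3.16, 6.12, 2.71 and 3.56 CPM in CHIR99021. CHIR99021 replicate 2 was the high one, and the other 3 treated libraries lay within the control range. The means were 2.93 ± 0.789 and 3.89 ± 1.53 CPM (SD, n = 4 each), with a log2 fold change of 0.29 (95% confidence interval -0.18 to 0.77, limma adjusted p = 0.329). Without CHIR99021 replicate 2 the value was 0.096. The interval covers changes in both directions, so no direction was detectable for Tbx15 with these replicates.

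Tbx3, a repressor that acts in the heart, the limb and the mammary gland and is a target of β-catenin in human and mouse liver tumours, lies on the plus strand of chr5 (119670669 to 119684724). Its level was 66.2, 53.1, 58.4 and 63.3 CPM in control and 70.4, 69.8, 78.1 and 73.7 CPM in CHIR99021. The lowest treated library was above the highest control library. The mean was 60.2 ± 5.75 CPM in control and 73.0 ± 3.82 CPM in CHIR99021 (SD, n = 4 each). The log2 fold change was 0.28 (SE 0.074, 95% confidence interval 0.11 to 0.44, limma adjusted p = 0.0146). Within replicates 1 and 4 alone, whose control levels were the higher ones, the change was 0.15 and did not pass (limma adjusted p = 0.194), and within replicates 2 and 3 alone it was 0.40 (limma adjusted p = 0.0343). The antisense transcript Tbx3os1 shares 115 exonic bases with Tbx3. It was at 11.3, 6.00, 5.88 and 9.05 CPM in control and 12.9, 7.81, 9.44 and 11.6 CPM in CHIR99021. Its higher values were in replicates 1 and 4 of both groups, a pattern that Tbx3 had in control only. The groups of Tbx3os1 overlapped, and it was higher in CHIR99021 in 4 of 4 pairs of the same replicate number. Whether the counting used strand is not given, so reads in the stretch shared with Tbx3 cannot be assigned with certainty.

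Tbx2, the closest relative of Tbx3, lies on the plus strand of chr11 (85832551 to 85841948) and has 1 annotated transcript. Control libraries held 223, 227, 228 and 225 CPM and CHIR99021 libraries 235, 240, 244 and 213 CPM. CHIR99021 replicate 4 was the lowest of all 8 libraries and the other 3 treated libraries were the highest. The means were 226 ± 2.07 and 233 ± 13.8 CPM (SD, n = 4 each). The log2 fold change was 0.04, with a 95% confidence interval of -0.07 to 0.16 (limma adjusted p = 0.566). This interval leaves out the Tbx3 estimate of 0.28 but overlaps the interval of Tbx3, 0.11 to 0.44. After TMM scaling the Tbx2 interval was -0.01 to 0.22. The difference between the changes of Tbx2 and Tbx3 was not tested across genes. Reads of Tbx3 per read of Tbx2 were 0.267 ± 0.0276 in control and 0.314 ± 0.0247 in CHIR99021 (SD, n = 4 each). The groups overlapped, and the ratio was higher in CHIR99021 in 4 of 4 pairs of the same replicate number. In replicate 1 the values were nearly equal, 0.297 in control and 0.300 in CHIR99021.

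**Figure D2:**
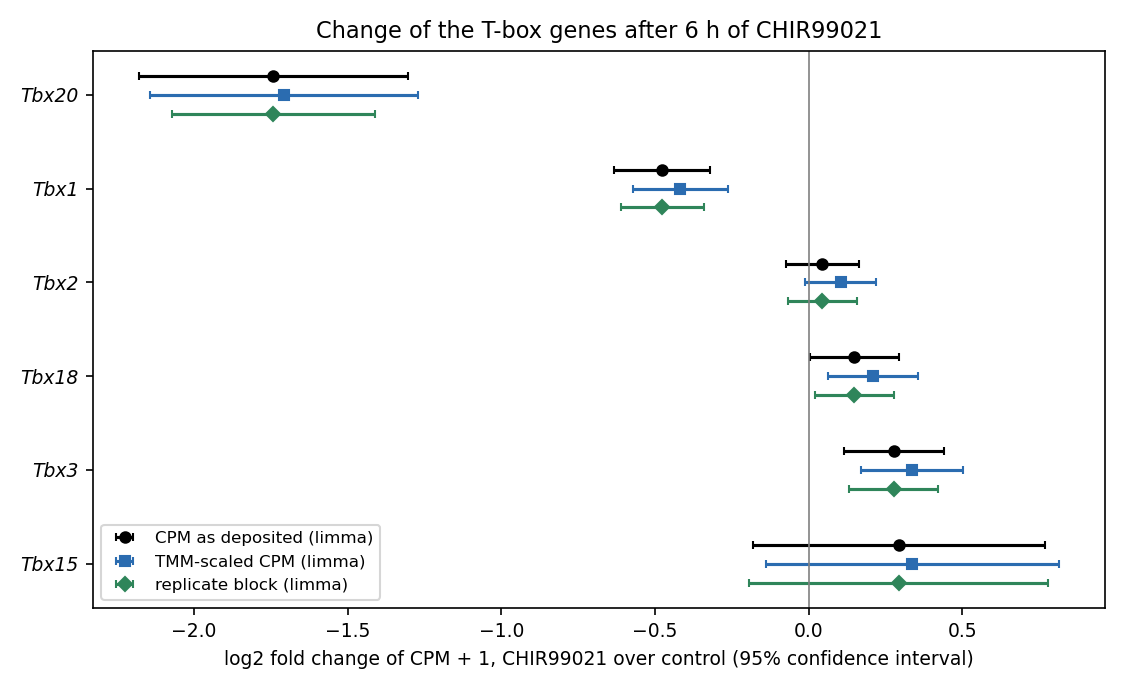
Log2 fold change of CPM + 1 in CHIR99021 over control for the 6 T-box genes, with 95% confidence intervals. Circles are the CPM as deposited, squares the CPM after TMM scaling and diamonds the fit with the replicate number as a block. The intervals are per gene and not adjusted for the number of genes tested. Intervals of Tbx20, Tbx1, Tbx3 and Tbx18 stay clear of 0 in the 3 fits, that of Tbx18 narrowly in the first (0.0035 to 0.29), while those of Tbx2 and Tbx15 cross 0 in each. After adjustment, Tbx18 did not pass in limma on the CPM as deposited (adjusted p = 0.107) or with the block (adjusted p = 0.0617).

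Per kilobase of annotated exon, the T-box transcripts of control explants were mainly Tbx2 and Tbx18. Tbx2 was at 62.2 ± 0.571 CPM per kb and Tbx18 at 42.2 ± 3.01, followed by Tbx1 at 18.2 ± 0.412, Tbx3 at 9.09 ± 0.868, Tbx15 at 0.781 ± 0.211 and Tbx20 at 0.373 ± 0.0981 (SD, n = 4). Among 14238 genes with a length and a mean of at least 1 CPM, these control levels per kb stood at percentiles 95.0, 91.5, 76.2, 56.4, 9.24 and 3.50. Each neighbouring pair kept this order in 8 of 8 libraries, and the control ranges of neighbours did not overlap. With the longest transcript in place of all exons, the order was the same in both groups. In CHIR99021, Tbx1 (13.0 ± 1.30 CPM per kb) and Tbx3 (11.0 ± 0.576) came to lie side by side, and the range of Tbx1, 11.7 to 14.8, overlapped that of Tbx3, 10.5 to 11.8. Tbx2 and Tbx18 made up 78.6 ± 1.15% of the members' summed level per kb in control and 81.5 ± 0.602% in CHIR99021 (SD, n = 4 each).

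**Figure D3:**
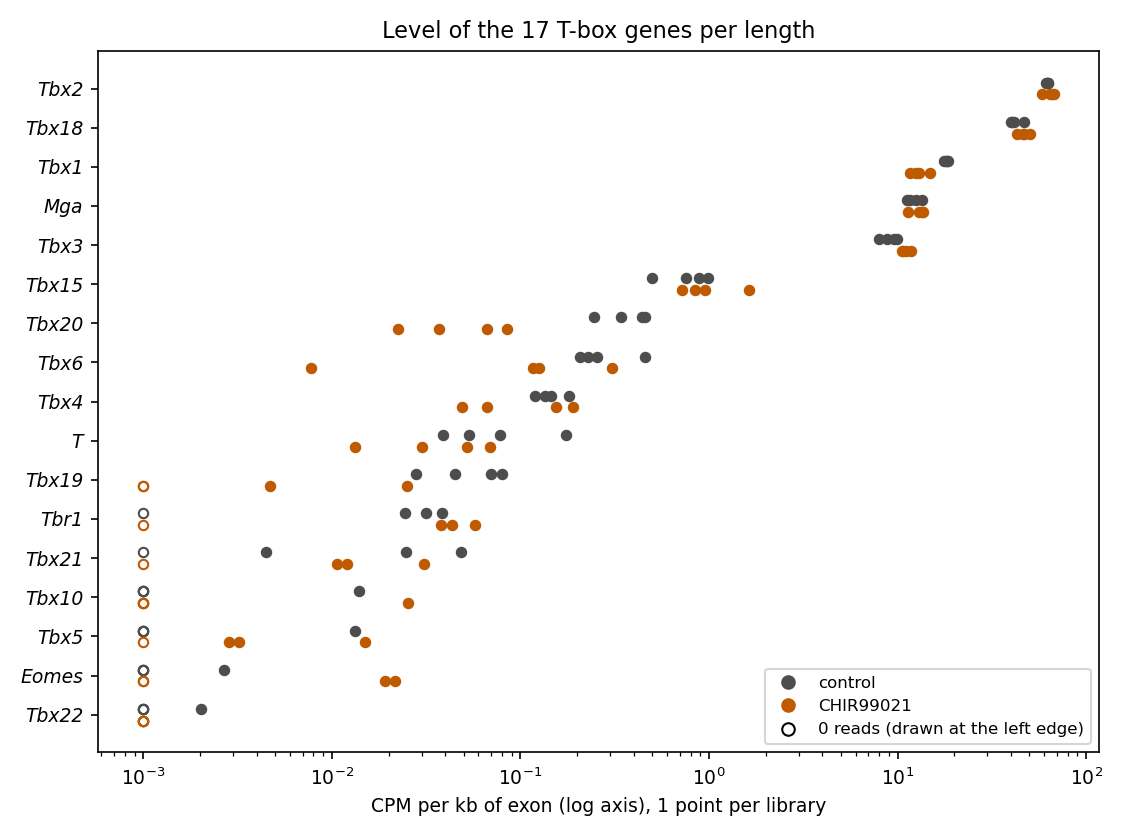
CPM per kb of exon of the 17 T-box genes on a log axis, with 1 point per library (dark, control and orange, CHIR99021). Open points at the left edge are libraries with 0 reads. Tbx2 and Tbx18 lead in both groups, and the Tbx20 points of CHIR99021, 0.0226 to 0.0848, lie below those of control, 0.247 to 0.459.

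Outside the 6 members, 11 T-box genes are listed and only Mga, which carries a T-box and also binds MAX, reached a mean of 1 CPM. Mga was at 188 ± 15.9 CPM in control and 197 ± 15.3 CPM in CHIR99021 (SD, n = 4 each, log2 fold change 0.07, limma adjusted p = 0.508), and at 12.3 CPM per kb in control. Tbx4 lies 44.5 kb from Tbx2 and Tbx5 lies 148 kb from Tbx3, yet their control levels were 0.495 and 0.0155 CPM. Tbx19, the pituitary member of the family, had 8 to 18 reads per control library and 0 to 6 reads per treated library, too few for the test.

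Ratios of reads within a library do not depend on its scaling. Tbx3 had 1.02, 0.839, 0.892 and 1.02 reads per Tbx1 read in control and 1.59, 1.52, 1.50 and 1.79 in CHIR99021. The groups did not overlap, and the mean went from 0.943 ± 0.0919 to 1.60 ± 0.132 (SD, n = 4 each). Tbx2 reads per Tbx18 read were 1.14 ± 0.0741 in control and 1.06 ± 0.114 in CHIR99021, with overlapping groups and a lower ratio in 3 of 4 pairs. For each Tbx20 read there were 11.9 to 21.0 Tbx1 reads in control and 45.1 to 152 in CHIR99021, without overlap. The 6 members summed to 556 ± 9.60 CPM in control and 577 ± 18.2 CPM in CHIR99021 (SD, n = 4 each), with overlapping groups and a higher sum in 4 of 4 pairs.

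**Figure D4:**
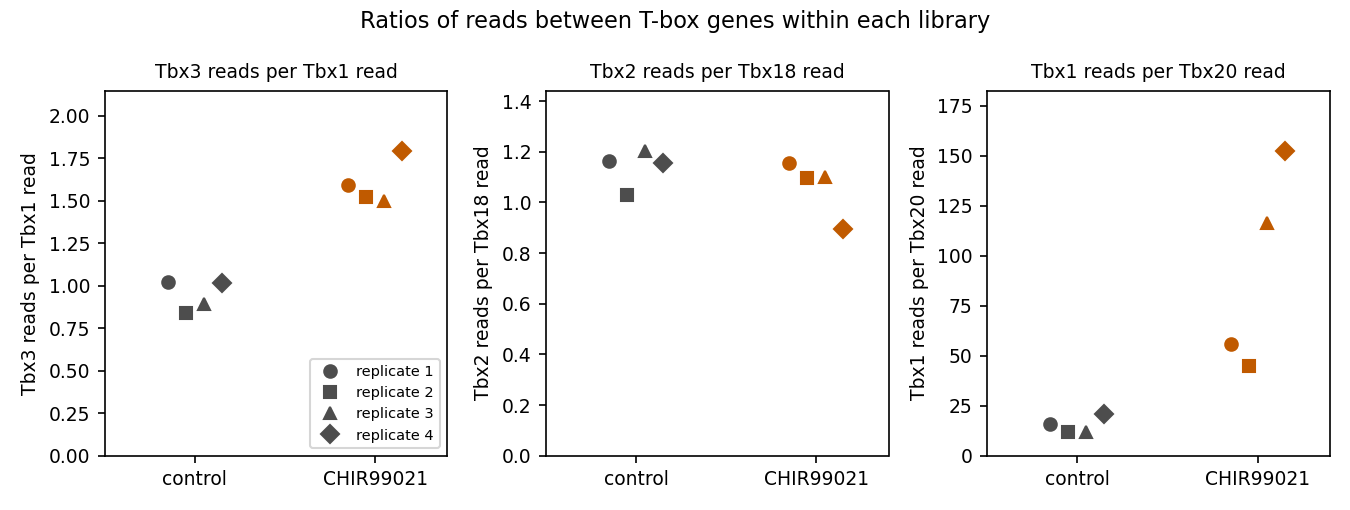
Reads of Tbx3 per read of Tbx1, of Tbx2 per read of Tbx18 and of Tbx1 per read of Tbx20, 1 marker per library and the same marker for the same replicate number, on axes that start at 0. The Tbx3 to Tbx1 ratio was at most 1.02 in control and at least 1.50 in CHIR99021, and the Tbx2 to Tbx18 ratios overlap.

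Among genes linked to Tbx1 in the ear and pharynx, 13 of 18 could be tested, and 2 were higher, 4 lower and 7 did not pass (median log2 fold change -0.25, beside -0.05 over all tested genes). Over all tested genes 12.3% were higher and 21.4% lower. Cyp26b1, a retinoic acid hydroxylase, fell from 47.9 ± 7.39 to 24.9 ± 1.65 CPM (limma adjusted p = 9.49e-05, log2 fold change -0.91). The growth factor gene Bmp4 fell from 105 ± 11.0 to 60.9 ± 7.26 CPM (limma adjusted p = 0.000154, log2 fold change -0.78), and Fgf3, an otic inducer, rose from 0.806 ± 0.0475 to 2.29 ± 0.177 CPM (limma adjusted p = 0.000352, log2 fold change 0.86). The other 3 that passed, named after their values were seen, were the ligand gene Fgf10 (58.9 to 81.9 CPM, higher), the homeobox gene Otx2 (71.8 to 55.6 CPM, lower) and Pou3f4, a factor of the periotic mesenchyme (218 to 184 CPM, lower). After TMM scaling 3 were higher and 4 lower. Fgf3 passed the filter on low values only through its CHIR99021 level, since its control mean was under 1 CPM, and its call is given as a description.

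Of 11 tested corepressors and partners of T-box proteins, out of 13 followed, 2 were lower, none was higher and 9 did not pass (median 0.0024). This is a share near the 21.4% of all tested genes that were lower. The zinc finger gene Gata6 fell from 7.26 ± 0.946 to 4.02 ± 0.999 CPM (limma adjusted p = 0.00553, log2 fold change -0.74) and the homeobox gene Six2 from 232 ± 23.2 to 176 ± 18.3 CPM (limma adjusted p = 0.00563, log2 fold change -0.40). Tle2, a Groucho corepressor gene, went from 40.4 to 25.2 CPM without passing (limma adjusted p = 0.0651). The other Groucho genes and the histone deacetylase genes of the list did not pass either.

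Of 7 tested genes, out of 9 followed, that Tbx2 or Tbx3 represses in other tissues, 2 were higher, 2 lower and 3 did not pass (median -0.12), beside 12.3% higher and 21.4% lower of all tested genes. After TMM scaling 2 were higher and 1 lower. The connexin 43 gene Gja1 rose from 94.1 ± 3.92 to 140 ± 5.17 CPM (limma adjusted p = 2.45e-05, log2 fold change 0.57) and the cell cycle inhibitor Cdkn1a from 78.9 to 135 CPM (limma adjusted p = 0.00045, log2 fold change 0.78), while Cdkn1b, another inhibitor of the same family, fell from 126 ± 7.86 to 87.2 ± 3.03 CPM (limma adjusted p = 7.45e-05, log2 fold change -0.53). Cyr61, a matrix protein gene (97.1 to 67.6 CPM, lower), also passed and is named after its values were seen. Its call was lost with TMM (limma adjusted p = 0.0568).

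**Figure D5:**
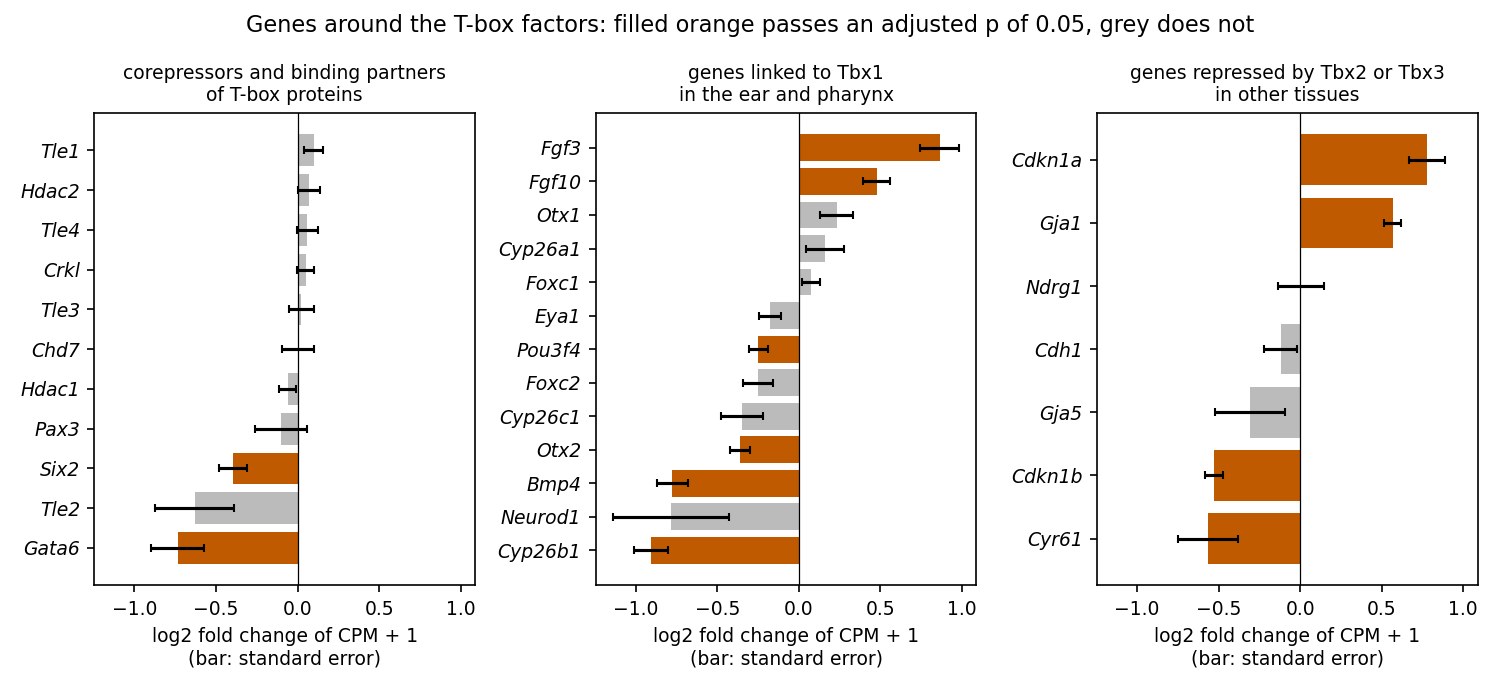
Log2 fold change of CPM + 1 for the tested genes of the lists around the T-box factors, with standard errors. Orange bars passed an adjusted p of 0.05 in limma and grey bars did not. The partners that passed, Gata6 and Six2, were lower, and the other lists hold calls in both directions.

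Markers of the tissues in which Tbx1 and Tbx18 are known to act were also read, beside 12.3% of all tested genes higher and 21.4% lower. Of 9 otic epithelial markers, 4 were lower and 5 did not pass, with summed levels of 1419 to 1694 CPM in control and 1371 to 1479 CPM in CHIR99021, and 2 were lower after TMM scaling. Gata3, a factor of the prosensory domain, fell from 354 to 281 CPM, the progenitor gene Sox2 from 59.1 to 44.7 CPM and Otoa, for the protein otoancorin, from 43.4 to 34.4 CPM. The Otoa call was lost with TMM (limma adjusted p = 0.0585). Of 11 mesenchymal markers, 3 were higher and 4 lower, with summed levels of 2192 to 2451 CPM in control and 1932 to 2079 CPM in CHIR99021. The homeobox gene Prrx1 rose from 180 to 308 CPM, the receptor gene Pdgfra fell from 260 to 153 CPM and the collagen gene Col3a1 from 570 to 387 CPM. Lower calls and no higher ones were found for cartilage (4 of 6 tested), glia (4 of 5), melanocytes (1 of 4), endothelium (1 of 6) and macrophages and blood (1 of 4), beside 21.4% of all tested genes. The counts for melanocytes, endothelium and blood are near that share. After TMM scaling the melanocyte call was lost and 3 glial markers were lower. No marker in these lists was at 0 in all libraries, and the part of cell makeup in the differences of the T-box genes was not tested.

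Neither sex nor its interaction with treatment gave a call for any member. With limma and treatment in the model, 0 of 6 members and 14 of 14264 genes (0.0981%) differed between male and female libraries. Among the members, the widest difference was in Tbx15, at 0.19 (male over female, 95% confidence interval -0.29 to 0.68). Male libraries were at 207 and female at 190 CPM of Tbx18 in control, and at 229 and 213 CPM in CHIR99021 (n = 2 each). For the interaction, limma called 0 of 14264 genes (0%), with 181 at an unadjusted p under 0.05, edgeR called 0 and DESeq2 3. The fit with the replicate block called 2 genes, neither a member. With 2 libraries per sex and group, the interval of the interaction was wide, from -0.79 to 1.18 for Tbx20 and from -0.42 to 0.24 for Tbx1.

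Likeness of profile was measured as the mean absolute difference of log2(CPM + 1) over the 8 libraries, each gene centred on its own mean, and the 2 nearest genes are named. Nearest to Tbx20 were Tcp11l2 (25.5 to 6.18 CPM, difference 0.185) and Ccng2, an atypical cyclin (124 to 32.9 CPM, difference 0.190). In edgeR, Tcp11l2 changed by -1.99, Ccng2 by -1.86 and Tbx20 by -2.76. The likeness to Tbx20 therefore belongs to the log2(CPM + 1) scale, which understates its change. Nearest to Tbx1 were Lrrc28 (difference 0.0315) and the adaptor gene Gab1 (0.0379). Nearest to Tbx3 were Sc5d, a sterol desaturase (0.0403), and Prox1, a homeobox gene of the prosensory domain (0.0441). For Tbx2 they were Csnk2b, the regulatory subunit of casein kinase II (0.0147), and the forkhead gene Foxc1 (0.026), and for Tbx18 Samd4 (0.0352) and Aldh5a1, a mitochondrial dehydrogenase (0.0423). For Tbx15 the nearest were Zc3h12d (0.119) and B3gnt7 (0.12). The distances are descriptions over 8 libraries that share the treatment.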

How the data were processed

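RNA of 8 explant samples was polyA-enriched, prepared with a strand-specific kit and sequenced as 75 bp fragments. The authors mapped reads to GRCm38 with HISAT2. The counter, its strand setting and the test behind the authors' comparisons are not given in the sources used here. The deposited values are CPM, whose total is the reads the authors assigned, and 99.7% of it lies on listed genes. The 12 columns of the authors' own comparisons (fold ratios, log2 fold changes, p-values and false discovery rates) were not used. All values (100%) were whole reads within 0.001 read.

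The 14264 genes whose mean over the libraries reached 1 CPM were tested with limma 3.58.1 (R 4.3.3) with a trend on log2(CPM + 1). edgeR 4.0.16 on the recovered reads with TMM called 4754 genes (2414 higher, 2340 lower). DESeq2 1.42.0, other pseudocounts (0.1 and 0.5), filters (none and 5 CPM), left-out libraries, pairs of replicates, sex as a covariate and a replicate block were alternatives. The last with edgeR was chosen after seeing the data. Libraries with the same replicate number deviated together (r = 0.51, 0.25, 0.35 and 0.34). With another number, r was at most 0.12, 0.17, 0.17 and 0.12. From these same data, the numbers were taken to pair the samples. The main test did not use this pairing, which entered the replicate block and the counts of pairs. A seeded simulation was used to test the fit. Exon lengths came from GENCODE M21 (99.3% of identifiers matched). Named genes were the members, other T-box genes of at least 1 CPM, the 2 genes nearest each member and the 3 of smallest p in a list, except markers given as counts. Tbx4, Tbx5 and Tbx19 and those so marked in the text were named after their values were seen. Members and lists were chosen with earlier results of these data known. A comparison of the proteins was not run, and 2 genes of the lists are not reported here. P-values set a difference between groups against the spread between these libraries, and whether each is 1 embryo or a pool is not given.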

Additional observations from a re-analysis of the deposited data

How the results depend on the processing

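Over 21 alternatives to the treatment test, 2 to 4 of the 6 members passed. The fall of Tbx1 passed in 21 of 21 alternatives (log2 fold change -0.56 to -0.39) and that of Tbx20 in the 20 that could test it (-2.85 to -1.58), since a minimum of 5 CPM left Tbx15 and Tbx20 out. For Tbx20 this count is a description, since its CHIR99021 mean was under 1 CPM. Tbx3 passed in 20 of 21, and without one library its change was 0.22 to 0.32. Tbx18 passed in 6, with TMM scaling (0.21), edgeR with TMM (0.21), edgeR with DESeq2 size factors (0.21), DESeq2 (0.21), the replicate block in edgeR (0.21) and without control replicate 2. Within replicates 1 and 4 alone, Tbx2 (-0.0023) and Tbx15 (-0.048) turned direction, neither of which passed in any fit, and Tbx3 lost its call (0.15). Causes were not tested.

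The 4805 genes that passed became 1668 within replicates 2 and 3 alone, where 4 libraries were used, 3299 within replicates 1 and 4 alone, and 3887 to 4610 without any single library. With the replicate block as pairing, 5908 genes passed, and no member's call changed in limma (Tbx18 adjusted p = 0.0617). TMM scaling moved the median over all genes from -0.05 to 0.01. Depth limits Tbx20, which had 18 to 66 reads in each treated library, and intervals for sex rest on 2 libraries per sex and group.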
